A study of Mus musculus with 2 samples.

Results

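A run of 10 neighbouring genes on mouse chromosome 16, around the adiponectin gene Adipoq, was followed across the cell classes of brown adipose tissue. The genes were Tbccd1, Dnajb11, Fetub, Kng2, Kng1, Eif4a2, Rfc4, Adipoq, St6gal1 and Masp1, which are 10 of the 22620 genes of the files. They were taken by symbol from the stretch between 22.8 and 23.6 Mb (mm10), and they were picked because counts in this stretch were higher in one library than in the other. Differences between the libraries were therefore the ground of the choice, and they are given here as a description with no test.

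The tissue came from mice of 4 weeks, and the polyadenylated RNA of its single nuclei was captured in droplets, in 1 library of genotype Flox and 1 library of genotype KO, which the series text writes as Nfe2l1(f)-KO. Nfe2l1 encodes NFE2L1 (also called NRF1), a transcription factor of the endoplasmic reticulum membrane that is known to drive proteasome genes, and the study asks how its loss changes brown adipocytes. Not given in the sources used here are the promoter that drives the deletion, the strain and sex, the part of the gene deleted and the number of mice behind each library. The Flox-labelled library held 16145 barcodes with 46528077 unique molecular identifiers (UMIs, each counting 1 captured RNA molecule), and the KO-labelled library held 13030 barcodes with 43080725 UMIs.

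Kininogens are plasma proteins of the cystatin superfamily that are made mainly by the liver. Kallikrein cuts them to release bradykinin, a short peptide that widens vessels and raises their permeability through the receptors encoded by Bdkrb1 and Bdkrb2, and angiotensin-converting enzyme degrades it. Mice carry a pair of kininogen genes, Kng1 and Kng2, side by side. Adipoq, further along the same stretch, encodes adiponectin, a hormone that adipocytes secrete and that raises insulin sensitivity and fat oxidation in liver and muscle through the receptors encoded by Adipor1 and Adipor2.

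After filtering, 13986 nuclei of the Flox-labelled library and 11570 of the KO-labelled library were kept, with medians of 2254 and 2642 UMIs. Clustering without the 10 genes gave 15 clusters, and marker lists named 8 classes, which carry "-like" because the names rest on RNA alone. Adipocyte-like nuclei numbered 8961 and 8268, and in each of their 4 clusters at least 8 of 13 adipocyte markers, among them Plin1, Lipe, Pparg and Cidec, were at least 2-fold above the median cluster. The libraries differed in more than these genes. In adipocyte-like nuclei mitochondrial UMIs made up 0.49% and 1.29% of the summed UMIs in the libraries labelled Flox and KO. The 4 erythroid markers together stood there at 144 and 402 CPM (UMIs scaled to the sum of all UMIs in the class). Barcodes found in both libraries numbered 65. Nfe2l1 itself went against the labels: its 3 prime tag count in adipocyte-like nuclei was 131 CPM under the Flox label and 312 CPM under the KO label, which does not check a deletion of part of the gene. Directions below are therefore between labelled libraries. Each genotype has 1 library, so the differences have no replicate check. Intervals are at 95% and cover counting error only, not the spread between nuclei or mice.

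The kininogens are paralogs whose reads could be confused, so their sequences were compared. The coding stretch around bradykinin is shown because it encodes the peptide that both genes can give, with the 27 bases that encode bradykinin in capitals (GENCODE vM21 transcripts Kng1-201 and Kng2-202, mm10, 5′ to 3′).
Kng1: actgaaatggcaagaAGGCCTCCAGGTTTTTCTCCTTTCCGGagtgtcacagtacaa
Kng2: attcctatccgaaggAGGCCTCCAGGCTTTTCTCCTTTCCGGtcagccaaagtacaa
The stretches differ at 14 of 57 bases and at 1 of the 27 bases in capitals, T27C, counted from 1 at the 5′ end of the stretch with the base of Kng1 first. Of the 3243 windows of 90 bases in the annotated Kng1 transcripts, 210 (6.48%) also occur in a Kng2 transcript, and the share is 1.65% over the last 500 bases, where 3 prime tags mostly fall. Introns, which nuclear RNA also holds, were not compared. Beside 2537 Kng2 UMIs in adipocyte-like nuclei the Flox-labelled library held 4 Kng1 UMIs, or 0.158 per 100 Kng2 UMIs, and spill of reads between the paralogs was not tested. UMIs of the genes in their own place and UMIs of any further copy of them, such as one carried by a transgene, cannot be told apart in these counts, which bears on Kng1, Kng2 and Eif4a2 in particular.

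In gene order on chromosome 16 (GENCODE vM21, mm10), Tbccd1 (minus strand, 22813214 to 22857669) and Dnajb11 (plus strand, 22857845 to 22879634) lie head to head with 175 bases between them. Fetub (plus strand) spans 22918334 to 22939778. Kng2 (minus strand, 22985854 to 23029482) and Kng1 (plus strand, 23057865 to 23082078) are also head to head, 28382 bases apart. Eif4a2 (plus strand, 23107444 to 23114136) and Rfc4 (minus strand, 23113943 to 23127737) are tail to tail and their gene models overlap by 194 bases. Not given in the sources used here is whether the counting used strand, so UMIs of that overlap could go to either gene. Adipoq (plus strand) spans 23146536 to 23158028, St6gal1 (plus strand) 23224740 to 23360350 and Masp1 (minus strand) 23449417 to 23520815. Relative to the Adipoq start, Kng2 starts at -117 kb, Kng1 at -88.7 kb and Eif4a2 at -39.1 kb.

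In adipocyte-like nuclei the higher counts of the KO-labelled library lay in a part of the stretch. Kng1 was near 0 in one library and plainly counted in the other, Kng2 and Eif4a2 were 1.88 and 1.80 times as high in the KO-labelled library, Masp1 at the far end had a ratio of 0.424, and Tbccd1 at the near end and St6gal1 on the other side of Adipoq had ratios of 0.949 and 0.944. All 10 genes reached the minimum of 50 UMIs over both libraries. Of them 3 were at least 1.5-fold higher in the KO-labelled library (Kng2, Kng1 and Eif4a2) and 1 was at least 1.5-fold lower (Masp1). Over all 12353 genes with at least 50 UMIs in these nuclei, 1.95% were higher by 1.5-fold or more and 8.37% lower by as much. The median log2 ratio of KO over Flox was 0.25 over the 10 genes and -0.06 over all genes counted, and since the genes were picked by this contrast nothing follows from the difference.

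**Figure D1:**
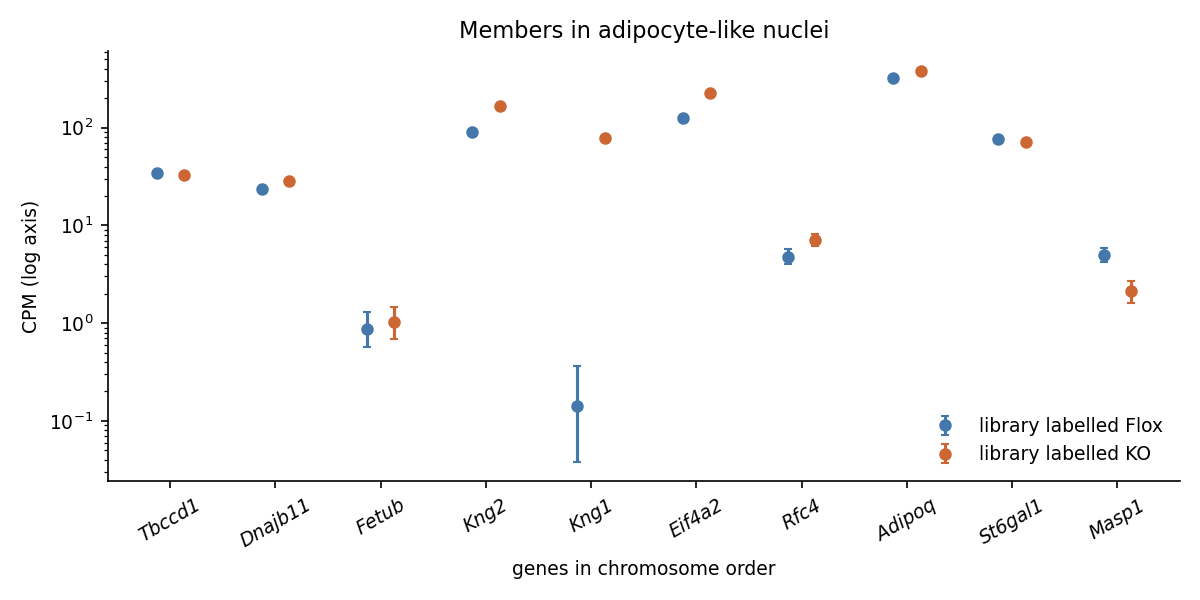
CPM (log axis) of the 10 genes in adipocyte-like nuclei, in chromosome order, for the Flox-labelled library (blue) and the KO-labelled library (orange), with exact Poisson 95% intervals as bars (hidden by the points where narrow). Kng1 moves from 0.141 to 78.4 CPM, Kng2 and Eif4a2 are higher in the KO-labelled library, Masp1 is lower, and Tbccd1 and St6gal1 nearly coincide.

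Kng1, one of the kininogen genes, had 4 UMIs in 8961 adipocyte-like nuclei of the Flox-labelled library (0.141 CPM, 0.0384 to 0.361). In 8268 nuclei of the KO-labelled library it had 2305 UMIs (78.4 CPM, 75.2 to 81.6). The ratio was 556, with an interval of 217 to 2042 that is wide because of the 4 UMIs. The UMIs were spread over many nuclei: 1493 nuclei of the KO-labelled library (18.1%) held at least 1, 506 held at least 2, and the most in a single nucleus was 9. In the Flox-labelled library the 4 UMIs lay in 4 nuclei. After thinning each nucleus to 1000 UMIs, which left out shallower nuclei, 7.01% (6.45 to 7.60) of 7762 nuclei of the KO-labelled library held a Kng1 UMI, against 0 of 8851 nuclei of the Flox-labelled library, which allows up to 0.0417%.

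Kng2, the other kininogen gene, was counted in both libraries. It had 2537 UMIs (89.4 CPM, 85.9 to 92.9) in the Flox-labelled library and 4954 UMIs (168 CPM, 164 to 173) in the KO-labelled library, a ratio of 1.88 (1.80 to 1.98). After thinning, the share of adipocyte-like nuclei with a Kng2 UMI was 7.48% (6.94 to 8.05) and 13.6% (12.8 to 14.4). Unthinned, it was 18.5% and 32.2%. For every 100 Kng2 UMIs the KO-labelled library held 46.5 Kng1 UMIs (44.3 to 48.9).

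Eif4a2 encodes an RNA helicase of the eIF4F complex, which unwinds the start of messenger RNAs for translation. It went from 3560 UMIs (125 CPM, 121 to 130) to 6633 UMIs (225 CPM, 220 to 231), a ratio of 1.80 (1.73 to 1.87). Its tail-to-tail neighbour Rfc4, which encodes a subunit of the clamp loader that places PCNA on DNA, had 136 UMIs (4.79 CPM) and 210 UMIs (7.14 CPM), a ratio of 1.49 (1.20 to 1.86) that lies just under the 1.5-fold limit. Rfc4 was thus a small fraction of Eif4a2 in UMIs, and the overlap of their gene models stands beside its ratio.

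Adipoq had 9126 UMIs (322 CPM, 315 to 328) in the Flox-labelled library and 11143 UMIs (379 CPM, 372 to 386) in the KO-labelled library, a ratio of 1.18 (1.15 to 1.21). That ratio was nearer to 1 than those of Kng2, Kng1, Eif4a2 and Masp1 of the same stretch. The share of adipocyte-like nuclei with an Adipoq UMI after thinning was 27.4% (26.5 to 28.4) and 30.4% (29.4 to 31.5).

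The remaining genes of the stretch differed less or were rare. Tbccd1, which encodes a protein with a tubulin-binding-cofactor domain, had 986 and 970 UMIs (34.7 and 33.0 CPM), a ratio of 0.949 (0.868 to 1.04). Dnajb11, an HSP40 co-chaperone of the endoplasmic reticulum, had 673 and 839 UMIs (23.7 and 28.5 CPM), a ratio of 1.20 (1.09 to 1.33). Although Tbccd1 and Dnajb11 share a 175-base gap between their starts, the interval of Tbccd1 included 1 and that of Dnajb11 did not. Fetub, which encodes the plasma protein fetuin-B, was at 25 and 30 UMIs (0.881 and 1.02 CPM), too few to show a difference at this depth. St6gal1, the sialyltransferase that adds sialic acid in alpha-2,6 linkage, had 2162 and 2115 UMIs (76.2 and 71.9 CPM), a ratio of 0.944 (0.889 to 1.003). Masp1, a serine protease of the lectin branch of complement, was lower in the KO-labelled library, with 141 and 62 UMIs (4.97 and 2.11 CPM) and a ratio of 0.424 (0.310 to 0.576).

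Promoter windows are shown for the well-counted genes of the stretch whose starts are in the RefSeq promoter table (build GRCm38.p6, the mm10 assembly), Kng2 and Eif4a2 for their difference between libraries and Adipoq as the landmark. The table held 7 of the 10 genes. Each window is the 250 bases before the RefSeq start, 5′ to 3′ on the strand of the gene, with motif matches in capitals. The RefSeq starts of Kng2 and Eif4a2 lie inside their GENCODE gene models. The Kng2 window lies wholly inside its model, and the end of the Eif4a2 window runs past the GENCODE start at 23107444.
Kng2, chr16:23029102-23029351, minus strand: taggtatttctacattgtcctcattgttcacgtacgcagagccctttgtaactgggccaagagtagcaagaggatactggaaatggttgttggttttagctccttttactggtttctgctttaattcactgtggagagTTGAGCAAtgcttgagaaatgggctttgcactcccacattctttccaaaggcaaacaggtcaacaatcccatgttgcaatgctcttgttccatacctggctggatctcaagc
Eif4a2, chr16:23107218-23107467, plus strand: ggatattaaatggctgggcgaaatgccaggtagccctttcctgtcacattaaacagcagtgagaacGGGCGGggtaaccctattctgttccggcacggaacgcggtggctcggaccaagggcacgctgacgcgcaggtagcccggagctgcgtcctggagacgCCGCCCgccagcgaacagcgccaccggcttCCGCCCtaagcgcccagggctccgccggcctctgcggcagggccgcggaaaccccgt
Adipoq, chr16:23146286-23146535, plus strand: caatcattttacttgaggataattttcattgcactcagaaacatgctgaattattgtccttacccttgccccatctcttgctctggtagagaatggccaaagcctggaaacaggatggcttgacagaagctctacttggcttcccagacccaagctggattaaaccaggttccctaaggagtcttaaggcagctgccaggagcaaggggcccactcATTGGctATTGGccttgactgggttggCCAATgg
The motifs searched on both strands were the CCAAT box (CCAAT), the TATA box (TATAAA), the GC box (GGGCGG), a C/EBP-type site (TTGCNNAA), the core of the antioxidant response element that NFE2L1 is known to bind (TGACNNNGC), and the direct repeat bound by PPAR-RXR dimers (DR1). The Adipoq window held 3 CCAAT boxes, at 34, 27 and 7 bases before the start, and CCAAT occurs in 33.8% of 32851 promoter windows of this length. The Eif4a2 window held 3 GC boxes, a motif found in 32.7% of windows, and 66.4% of its bases were G or C against 44.4% for Kng2. A single C/EBP-type match, 112 bases before the start, was in the Kng2 window, and 9.56% of windows have one. None of these 3 windows matched the antioxidant response core, which 10.2% of windows hold, or the direct repeat, which 0.338% hold, and this says only that the letters are not in these bases. Over all 10 windows of the 7 genes, 1 held the antioxidant response core, the second start of Fetub, with the match 110 bases before that start.

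Position was compared with the ratios in a wider window, from 20 to 26 Mb, in which 59 annotated genes were in the files and 40 reached 50 UMIs in adipocyte-like nuclei. Of the 30 that are not among the 10 genes, 1 was at least 1.5-fold higher in the KO-labelled library and 2 were at least 1.5-fold lower, with a median log2 ratio of -0.08. The higher one was Ehhadh, the bifunctional enzyme of peroxisomal fatty acid oxidation, which starts at -1359 kb relative to Adipoq and had 2542 UMIs (89.6 CPM) and 6061 UMIs (206 CPM), a ratio of 2.30 (2.20 to 2.41). The lower ones were Fam131a, with a log2 ratio of -0.94, and the ETS transcription factor gene Etv5, with a log2 ratio of -0.76. Within the stretch itself 5 more genes were in the files. Crygs, Ahsg, Hrg and Rtp1 had 0 to 3 UMIs per library in these nuclei. Rtp4, the neighbour of Masp1, had 776 and 887 UMIs and a log2 ratio of 0.14. Ahsg and Hrg, the liver-expressed relatives of Fetub that sit between Dnajb11 and Kng2, were thus at or near 0 in both libraries. Over chromosome 16 without the 10 genes, 3 of 382 counted genes were higher by 1.5-fold or more and 32 lower by as much. The genes past 1.5-fold higher in the stretch, Kng2, Kng1 and Eif4a2, follow each other in the annotation with no other counted gene between them, and their starts lie from -117 to -39.1 kb relative to that of Adipoq.

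**Figure D2:**
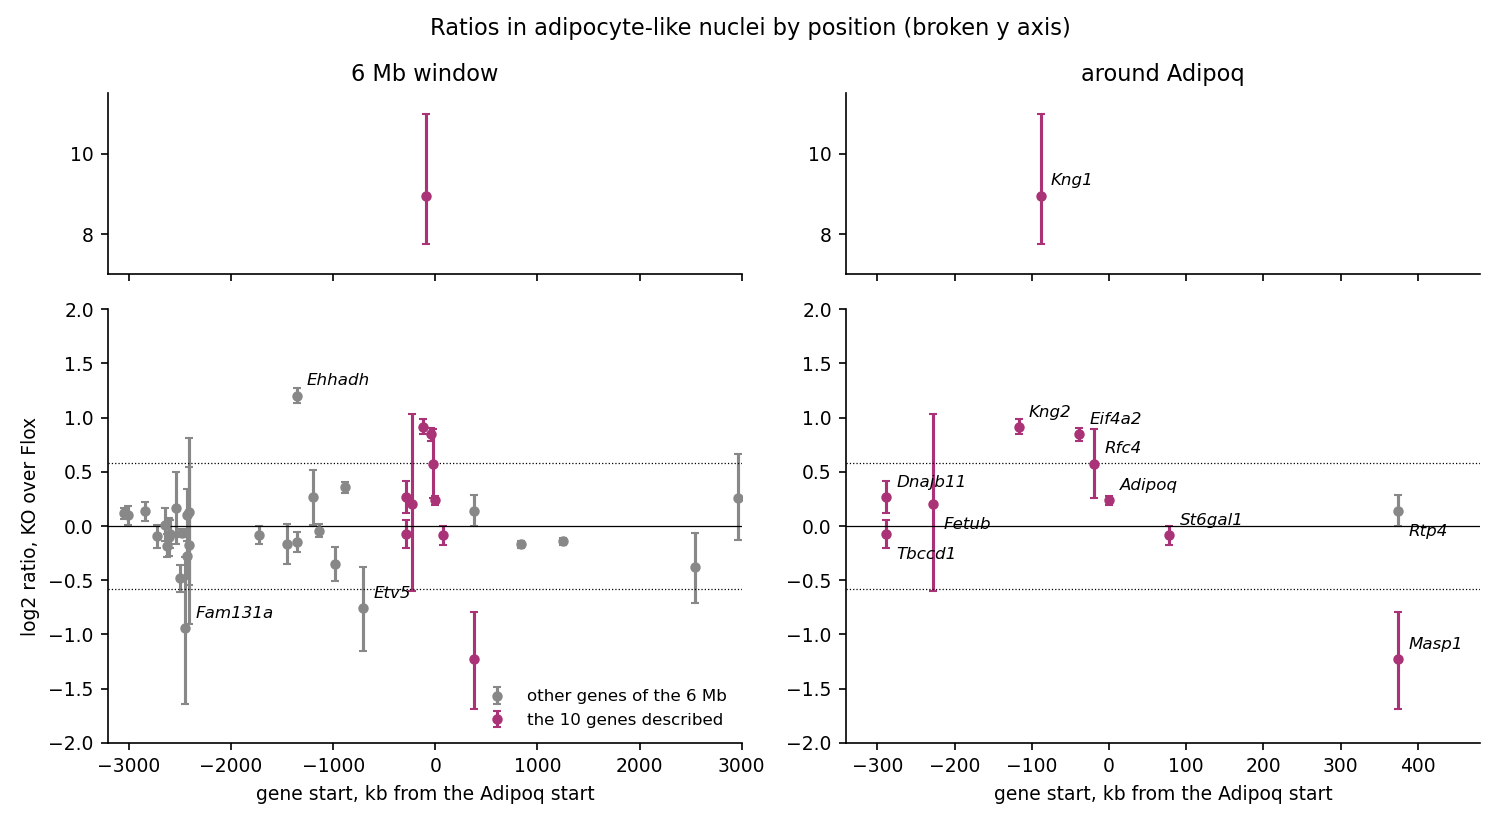
Log2 ratio of KO over Flox in adipocyte-like nuclei against the distance of the gene start from the Adipoq start (kb), for counted genes of the 6 Mb window (left) and near Adipoq (right), with the y axis broken for Kng1 at 8.95. Bars are exact 95% counting intervals, the 10 genes are purple, other genes grey, and dotted lines mark 1.5-fold; Kng2, Kng1, Eif4a2, Ehhadh (above) and Masp1, Etv5, Fam131a (below) lie outside them.

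Across cell classes the genes of the stretch did not move as a block. Eif4a2 was higher in the KO-labelled library in all 8 classes, while Kng2 differed in adipocyte-like nuclei and had intervals around 1 elsewhere. Of the 2347 Kng1 UMIs of the KO-labelled library, 2305 were in adipocyte-like nuclei. These nuclei held 29417213 of the 36402729 UMIs of all kept nuclei of that library. In that library Kng1 stood at 78.4 CPM in adipocyte-like nuclei and at 6.03 CPM over the 7 other classes.

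The ratio of Eif4a2 was 1.75 (1.56 to 1.96) in fibroblast/progenitor-like nuclei, from 507 to 692 UMIs (136 to 238 CPM). It was 1.62 (1.40 to 1.87) in endothelial-like nuclei, 1.66 (1.32 to 2.09) in macrophage/monocyte-like nuclei and 1.91 (1.45 to 2.53) in T/NK-like nuclei. In pericyte/smooth muscle-like nuclei it was 1.41 (1.09 to 1.83), in skeletal muscle-like nuclei 1.67 (1.17 to 2.36), and in Schwann-like nuclei it went from 11 to 28 UMIs. The level of Eif4a2 in the Flox-labelled library ranged from 79.0 CPM in Schwann-like to 196 CPM in pericyte/smooth muscle-like nuclei, and in the KO-labelled library from 211 CPM in macrophage/monocyte-like to 310 CPM in Schwann-like nuclei. Thinned shares of nuclei with an Eif4a2 UMI ran the same way, from 11.6% to 19.8% in adipocyte-like, from 12.2% to 18.1% in endothelial-like and from 10.9% to 19.4% in fibroblast/progenitor-like nuclei. The background of genes at least 1.5-fold higher was 3.04% in fibroblast/progenitor-like, 2.66% in endothelial-like, 4.57% in macrophage/monocyte-like, 8.08% in T/NK-like and 5.13% in pericyte/smooth muscle-like nuclei. Eif4a2 was the only counted gene of the 10 past that size in the first 4 of these classes, and none was in the last.

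Kng2 outside adipocyte-like nuclei summed to 163 and 126 UMIs over the 7 other classes (17.5 and 18.1 CPM), a ratio of 1.03 (0.811 to 1.31). Its highest level there was in T/NK-like nuclei, at 49.9 and 72.5 CPM from 28 and 31 UMIs, and its levels in fibroblast/progenitor-like nuclei were 13.7 and 12.7 CPM. What part of the Kng2 UMIs in other classes was free RNA was not tested. They are not read as expression, and the ratio of 1.03 is not read as unchanged expression there. The share of endothelial-like nuclei with a Kng2 UMI after thinning was 1.68% and 0.985%, where every nucleus of either class stood at 1000 UMIs. Before thinning the median depths were 1265 and 1582 UMIs in endothelial-like nuclei and 2757 and 3095 in adipocyte-like nuclei.

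Kng1 had 0 UMIs in all 7 other classes of the Flox-labelled library and 42 in those of the KO-labelled library (6.03 CPM), which is at least 18.7-fold higher when set against a floor of 3 UMIs over the 7 classes. Endothelial-like nuclei held 12 of them, T/NK-like and fibroblast/progenitor-like nuclei 10 each, macrophage/monocyte-like nuclei 6, skeletal muscle-like nuclei 2, and pericyte/smooth muscle-like and Schwann-like nuclei 1 each. After thinning, 0.141% (0.00356 to 0.781) of endothelial-like and 0.345% (0.0941 to 0.881) of fibroblast/progenitor-like nuclei of the KO-labelled library held a Kng1 UMI, against 7.01% of adipocyte-like nuclei. For T/NK-like nuclei that share was 1.43% (0.173 to 5.07). Their Kng1 level, 23.4 CPM (11.22 to 43.03), was the highest outside adipocyte-like nuclei. Free RNA of lysed cells can enter all droplets of a library. The ratio of genes in that free RNA was not measured here, so the ratios below are given as values only. In the KO-labelled library there were 33.3 Kng1 UMIs per 100 Kng2 UMIs (22.9 to 47.6) in the 7 other classes and 46.5 in adipocyte-like nuclei. Per 100 Adipoq UMIs there were 8.79 (6.25 to 12.1) and 20.7 (19.8 to 21.6). The value of 8.79 pools classes with different values. Endothelial-like nuclei had 8.45 (4.27 to 15.2), fibroblast/progenitor-like nuclei 5.46 (2.58 to 10.3) and macrophage/monocyte-like nuclei 15.4 (5.32 to 36.6). In T/NK-like nuclei the interval was 9.04 to 39.9, which includes the adipocyte-like value, as does that of macrophage/monocyte-like nuclei. The remaining classes had 1 or 2 Kng1 UMIs each. What part of the 42 UMIs was free RNA was not tested.

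Adipoq, the adipocyte gene of the stretch, was also counted in every other class, at 39.6 to 188 CPM, and 5.17% and 5.18% of thinned fibroblast/progenitor-like nuclei of the libraries labelled Flox and KO held a UMI of it. What part of the Adipoq UMIs in other classes was free RNA was not tested, and they are not read as expression. In endothelial-like nuclei Adipoq was lower in the KO-labelled library, from 286 UMIs (111 CPM) to 142 UMIs (72.9 CPM), a ratio of 0.657 (0.534 to 0.807), where 9.03% of genes were at least 1.5-fold lower.

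St6gal1 had another order of levels. It was highest in macrophage/monocyte-like nuclei, at 407 and 388 CPM, followed by Schwann-like nuclei at 302 and 321 CPM from 42 and 29 UMIs, whose intervals overlapped those of the macrophage/monocyte-like nuclei. T/NK-like nuclei stood at 167 and 206 CPM and adipocyte-like nuclei at 76.2 and 71.9 CPM, and skeletal muscle-like nuclei were lowest at 22.5 and 16.9 CPM. The share of macrophage/monocyte-like nuclei with a St6gal1 UMI after thinning was 29.6% and 31.1%, against 6.88% and 6.40% of adipocyte-like nuclei. No class had a St6gal1 ratio past 1.5-fold among those counted. Masp1 was highest in skeletal muscle-like nuclei, at 42.2 and 45.1 CPM from 30 and 8 UMIs, and had 0 UMIs in macrophage/monocyte-like, T/NK-like and Schwann-like nuclei of both libraries. Tbccd1 and Dnajb11 had at least 1 UMI in each of the 8 classes of both libraries, and Fetub had 3 and 2 UMIs outside adipocyte-like nuclei.

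**Figure D3:**
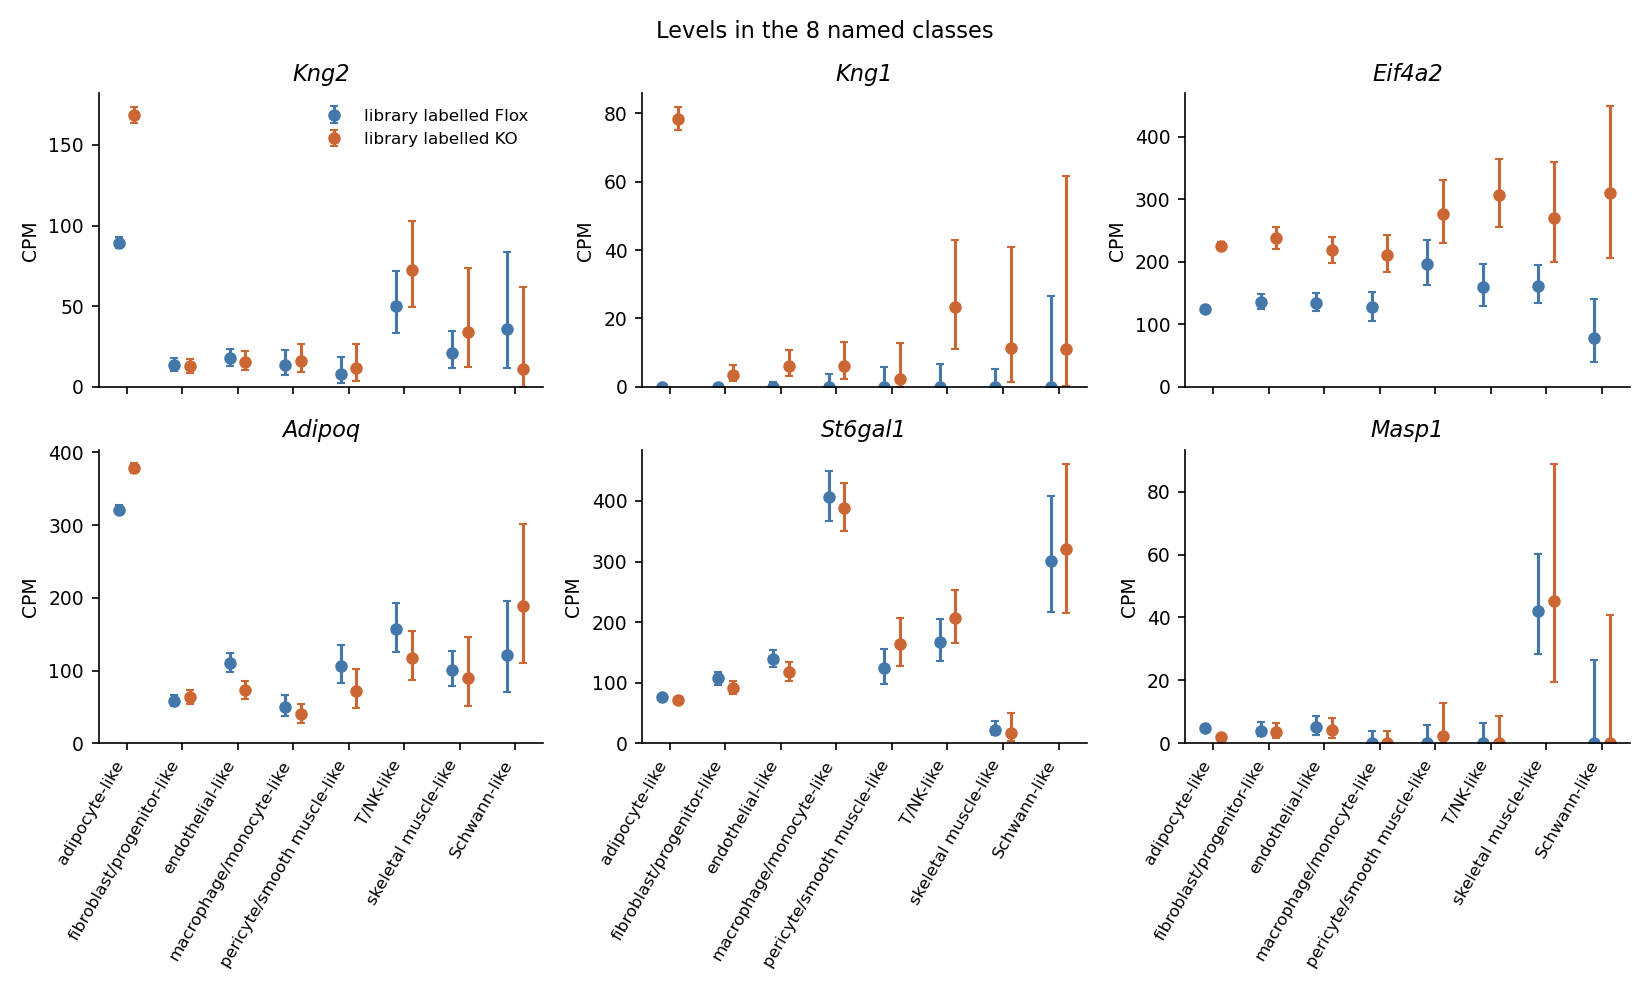
CPM in the 8 named classes for 6 of the genes, in the Flox-labelled library (blue) and the KO-labelled library (orange), with exact Poisson 95% intervals. Eif4a2 is higher in the KO-labelled library in every class, and Kng2 differs in adipocyte-like nuclei. Kng1 differs most plainly in adipocyte-like nuclei and has 0 and 42 UMIs over the 7 other classes. St6gal1 peaks in macrophage/monocyte-like nuclei at 407 and 388 CPM, and Masp1 in skeletal muscle-like nuclei.

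Within the adipocyte-like class, 4 clusters (numbered 1, 2, 3 and 8) separated the genes of the stretch further. Adra1a was among the 10 leading genes of clusters 1, 2 and 3, Lgr6 led clusters 1 and 2, and the interferon-induced genes Gbp11 and Iigp1 were among those of cluster 3. Cluster 8, with 433 and 323 nuclei, was led by Trhde, Slc7a10, Retn and Agt. The clustering did not use the 10 genes. Clusters 1, 2 and 3 made up 39.7%, 25.8% and 29.7% of adipocyte-like nuclei in the Flox-labelled library and 35.8%, 42.6% and 17.7% in the KO-labelled library.

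Both kininogens were low in cluster 8. Kng2 stood at 98.7, 102 and 80.6 CPM in clusters 1, 2 and 3 of the Flox-labelled library and at 8.14 CPM in cluster 8, and at 176, 176 and 173 CPM against 18.0 CPM in the KO-labelled library. Kng1 in the KO-labelled library was at 81.0, 88.2 and 74.3 CPM in clusters 1, 2 and 3 and at 10.2 CPM in cluster 8, from 13 UMIs. Kng1 and Kng2 thus had the same low cluster, and St6gal1 shared it, with 15.7 CPM in cluster 8 against 69.4 to 78.2 CPM in the others of the KO-labelled library.

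Adipoq and Eif4a2 ran the other way. Adipoq was highest in cluster 8, at 457 and 613 CPM, and its ratio there was 1.34 (1.21 to 1.49), against 1.13 (1.09 to 1.18), 1.12 (1.05 to 1.19) and 1.26 (1.19 to 1.33) in clusters 1, 2 and 3. Eif4a2 was at 167 and 293 CPM in cluster 8, and its ratios were 1.82, 1.78, 1.75 and 1.76 in the 4 clusters. The Kng2 ratios were 1.78, 1.72, 2.15 and 2.22, the last from 11 and 23 UMIs. Masp1 was nearly confined to cluster 8, which held 132 of its 141 adipocyte-like UMIs in the Flox-labelled library and 61 of 62 in the KO-labelled library, at 97.7 and 47.8 CPM and a ratio of 0.490 (0.355 to 0.668). Without cluster 8 its log2 ratio in adipocyte-like nuclei rested on 9 and 1 UMIs. Rfc4 was uneven, with ratios of 1.70 (1.21 to 2.42), 0.983 (0.636 to 1.54) and 1.97 (1.27 to 3.10) in clusters 1, 2 and 3 and 9 and 4 UMIs in cluster 8.

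**Figure D4:**
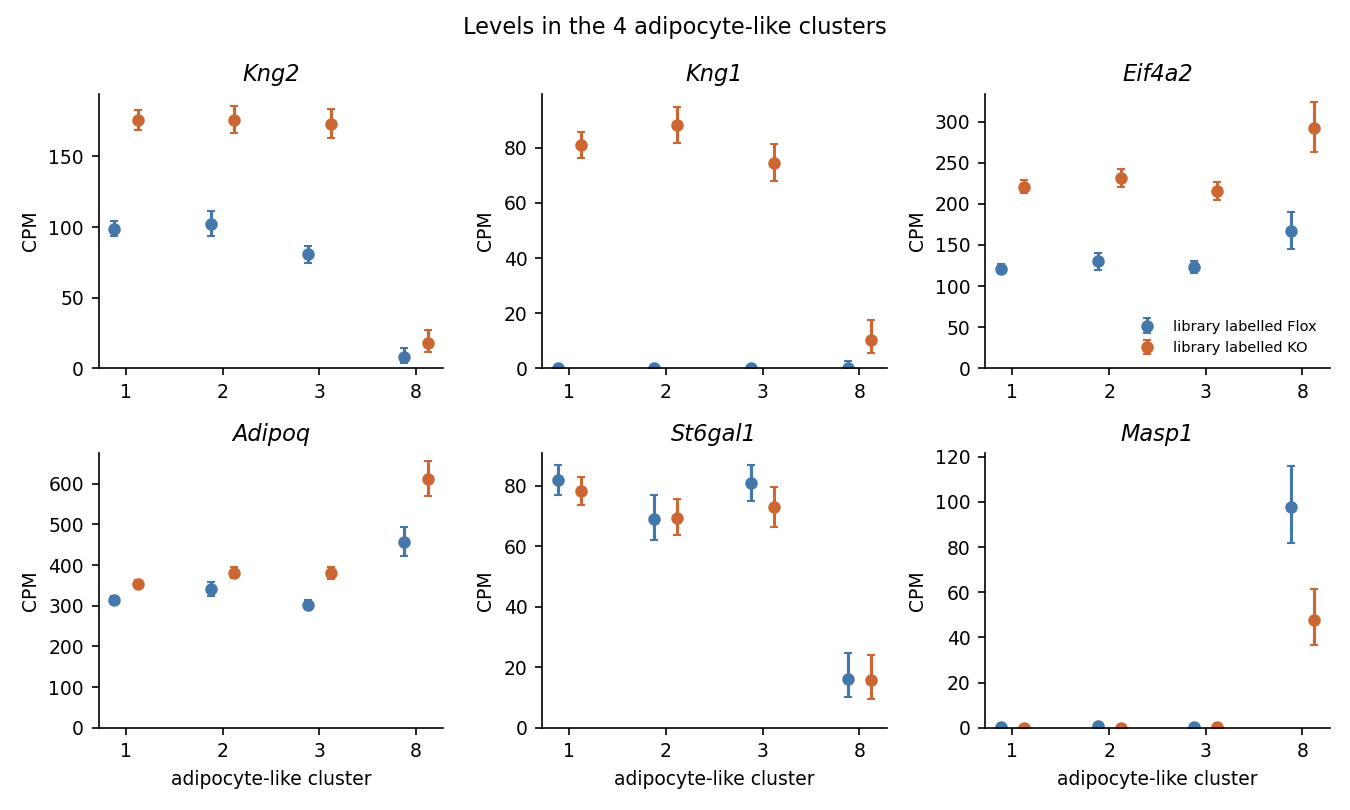
CPM of 6 genes in the 4 adipocyte-like clusters, by library (blue Flox, orange KO), with exact Poisson 95% intervals. In cluster 8 Kng2, Kng1 and St6gal1 are low, Adipoq and Eif4a2 are highest, and Masp1 stands at 97.7 and 47.8 CPM while it is near 0 in the others.

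Whether Kng1 molecules sat in the same nuclei as those of its neighbours was read from thinned adipocyte-like nuclei of the KO-labelled library. A Kng1 UMI was found in 11.9% (9.98 to 13.98) of the 1053 nuclei with a Kng2 UMI and in 6.25% (5.68 to 6.85) of the 6709 nuclei without. For Adipoq the shares were 6.69% (5.71 to 7.77) with and 7.15% (6.48 to 7.87) without, and for Eif4a2 6.82% (5.61 to 8.19) and 7.06% (6.43 to 7.72). The intervals were apart for the pair of kininogens and overlapped for Adipoq and Eif4a2. Within clusters, which removes differences between them, Kng1 was found in 12.01% of nuclei with and 6.39% of nuclei without Kng2 in cluster 1, in 13.4% and 6.83% in cluster 2, and in 8.67% and 6.08% in cluster 3, where the intervals overlapped. Nuclei of a library are not replicates, and these shares describe that library.

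**Figure D5:**
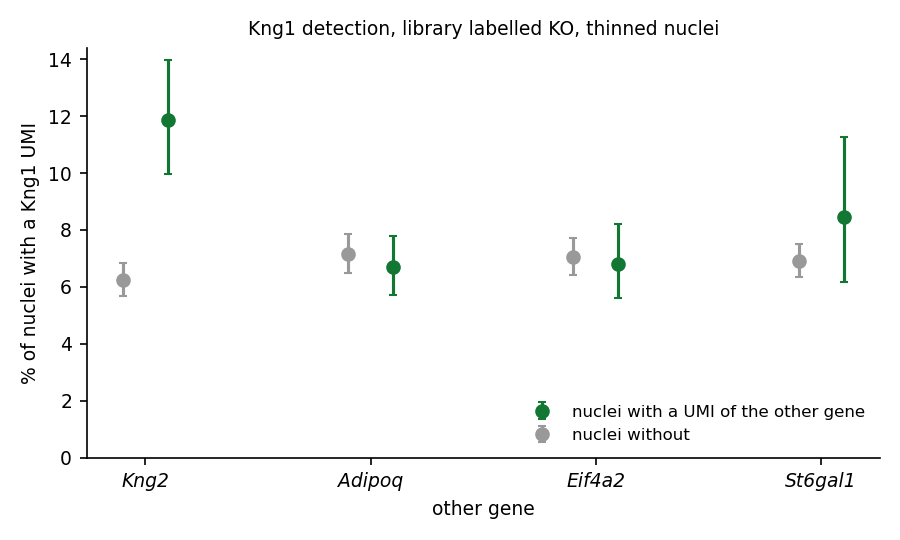
Share of thinned adipocyte-like nuclei of the KO-labelled library with a Kng1 UMI (%), among nuclei with (green) and without (grey) a UMI of the gene on the x axis, with Clopper-Pearson 95% intervals. The share is 11.9% against 6.25% for Kng2, and the intervals overlap for Adipoq, Eif4a2 and St6gal1.

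Over 12 sums of nuclei (6 classes in each of the libraries) the likeness of patterns was described by Pearson's r of log2(CPM + 1), for which sums of one library share its depth and free RNA. Kng1 had 0 UMIs in the Flox-labelled sums outside adipocyte-like nuclei and had UMIs in every KO-labelled sum. An r with Kng1 thus carries the contrast between libraries by which the 10 genes were picked, and is not read as a pattern across classes. The genes most like Kng1 were Ppp1r15b (r = 0.788), which encodes a phosphatase subunit that acts on the translation factor eIF2, the transcription factor gene Cebpb (r = 0.776), Nasp (r = 0.751), Zfp949 (r = 0.736) and Slc35b2 (r = 0.735). Their log2 ratios of KO over Flox in adipocyte-like nuclei were 0.70, 1.26, 0.13, 1.34 and 0.49. Genes among those most like Adipoq were Sgta (r = 0.983), Srsf10 (r = 0.981) and Ptpn4 (r = 0.981). Among the 10 genes, Kng2 had r = 0.837 with Adipoq, and Kng1 had r = 0.725 with Eif4a2 and 0.261 with Adipoq.

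The pathways to which the proteins belong were read in adipocyte-like nuclei from lists of their other genes. Of the kallikrein-kinin and renin-angiotensin list, 12 of 22 genes were counted, none was at least 1.5-fold higher in the KO-labelled library and 1 was lower, the peptidase gene Dpp4 with a log2 ratio of -0.75 (88 and 54 UMIs), and the median was -0.04. Dpp4 is also a fibroblast/progenitor marker, at 528 and 578 CPM in those nuclei. In adipocyte-like nuclei the 10 counted markers of that list had a median of -0.42 on the log2 scale, with 3 at least 1.5-fold lower and 1 higher. Dpp4 itself is among these 10 and among the 3 lower ones, the others being Pdgfra (-0.88) and Fbn1 (-0.65). The part of the other markers in the Dpp4 value was not tested. Klkb1, which encodes plasma kallikrein, was among the counted genes, with 30 and 39 UMIs and a log2 ratio of 0.32. The bradykinin receptor genes Bdkrb1 and Bdkrb2 were under 50 UMIs, with 9 and 5 and 6 and 6 UMIs. Bdkrb2 was counted elsewhere: in fibroblast/progenitor-like nuclei at 19.6 and 19.9 CPM (73 and 58 UMIs) and in endothelial-like nuclei at 14.3 and 12.8 CPM (37 and 25 UMIs). The Bdkrb1, Bdkrb2 and Klkb1 values were named after they were seen.

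For adiponectin secretion and signalling 14 genes were counted, none higher and 1 lower, with a median of -0.13. The lower one was Cdh13, which encodes T-cadherin, a surface protein that binds adiponectin, at 14.6 and 6.22 CPM (log2 ratio -1.23). Cdh13 was at 4183 and 3984 CPM in endothelial-like nuclei, and the 9 counted endothelial markers in adipocyte-like nuclei had a median log2 ratio of -0.76 with 5 of them at least 1.5-fold lower, and their part in the Cdh13 value was not tested. Of the 12 genes of the eIF4F list none was past 1.5-fold either way (median -0.02), and Eif4g1, its most abundant member, was at 485 and 463 CPM. The 8 clamp loader genes had none past 1.5-fold and a median of -0.15.

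Among the lists for the other proteins, the lectin complement list had 7 genes counted, 1 of them lower (Fcna, log2 ratio -0.71) and a median of -0.30. The 11 counted genes of sialic acid use had 1 higher, St3gal5, which makes the ganglioside GM3, at 52.6 and 100.4 CPM, and a median of 0.00. The cystatin-family list had 2 counted genes, of which Cst3 was at 169 and 219 CPM. The 10 chaperone genes (median 0.16) and the 7 tubulin cofactor genes (median 0.00) had none past 1.5-fold.

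Kininogens and fetuins are liver proteins, so hepatocyte markers were read beside them. The 6 hepatocyte markers summed to 27 and 21 UMIs in adipocyte-like nuclei of the libraries labelled Flox and KO, with Ttr, Ahsg and Fgb at 0 in both and Alb at 10 and 5 UMIs.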

How the data were processed

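Per the file headers, Cell Ranger 5.0.0 made the deposited counts, which are whole UMIs for each gene in each barcode. The build was mm10, per the submitters' processing notes. The kit was a 3' v3 droplet kit with 8000 nuclei targeted, per the labels' protocols. Not given in the sources used here are the annotation and the settings for strand and introns.

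Barcodes with under 200 genes or over 10% mitochondrial UMIs were removed (99 and 129), as were the highest Scrublet scores, at 0.8% per 1000 barcodes (2060 and 1331). Counts scaled to 10000 and logged, 2000 variable genes without the 10 genes, 30 components, 15 neighbours and Leiden resolution 0.5 gave the clusters (scanpy 1.11.5, leidenalg 0.10.2). A cluster was named for a list when at least 3 markers and 25% of that list were at least 2-fold above the median cluster. Each such marker had to be seen in at least 5% of its nuclei. The 10 leading genes, seen in at least 20% of nuclei, could hold no more markers of any other list than of that list. That 20% was set after the clusters were seen; at 5% cluster 2, led by Hbb-bs, stayed unnamed. Log2 ratios had 0.5 UMI added, and genes needed 50 UMIs over both libraries to be counted. Intervals were exact Poisson, exact binomial and Clopper-Pearson. TMM factors came from edgeR 4.0.16. Pathway genes were named where at least 1.5-fold apart, at most 3 a list, and otherwise the most abundant; neighbours where past 1.5-fold or next to one of the 10; the 5 most alike genes had at least 100 UMIs, and a few genes that this rule picked are not reported here. The 10 genes and all lists were chosen with earlier results of these data known. On simulated counts for adipocyte-like nuclei over 12349 genes, all 50 genes at a log2 ratio of 1 and all 49 at -1 were counted past 1.5-fold, and 95.4% of the intervals included the simulated ratio. The simulated counts were Poisson draws without spread between nuclei, libraries or mice, so they check only the computation.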

Additional observations from a re-analysis of the deposited data

Results flagged for a closer look

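The ratio of Adipoq lay on opposite sides of 1 in a pair of classes: its log2 ratio of KO over Flox was 0.236 (0.20 to 0.28) in adipocyte-like nuclei and -0.603 (-0.91 to -0.31) in endothelial-like nuclei. The difference between the classes was not tested, since each genotype has 1 library. Adipoq in endothelial-like nuclei was found in 7.26% and 6.33% of thinned nuclei of the libraries labelled Flox and KO.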

How the results depend on the processing

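The ratios of the 10 genes in adipocyte-like nuclei and the counts past 1.5-fold there were recomputed under 19 alternatives, and the Eif4a2 ratios of 5 other classes under 13 of them. Of the 19, 17 were listed beforehand and 2 (barcodes found in 1 library, and without the 1% of nuclei with most UMIs) were chosen after seeing the data. The co-detection by cluster was also chosen then. Other values of the other classes, clusters, lists and correlations were not recomputed. The log2 ratio of Kng1 in adipocyte-like nuclei ranged from 8.80 to 10.46, that of Kng2 from 0.84 to 0.999 and that of Eif4a2 from 0.82 to 0.89, all past 1.5-fold in each of the 19. Rfc4 ranged from 0.43 to 0.74 and was past 1.5-fold in 11, so that 3 or 4 of the genes were at least 1.5-fold higher. Adipoq ranged from 0.18 to 0.28 and Masp1 from -2.72 (without cluster 8) to -1.02. Fetub reached 1.36 with classes from marker scores per nucleus. Eif4a2 in T/NK-like nuclei was 0.44 with doublets kept and in endothelial-like nuclei 0.55 after thinning, both under 1.5-fold. The counts over all genes depended on the settings: 373 genes were at least 1.5-fold higher with classes from marker scores, 379 with a minimum of 20 UMIs and 1468 with a minimum of 1 UMI, against 241, and 620 were lower after thinning and 3285 with a minimum of 1 UMI, against 1034. The causes were not tested. TMM factors moved the median of all genes by 0.04. No paired analysis was possible because each genotype has 1 library.

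Depth limits Fetub, Rfc4 and Masp1, which have few UMIs outside adipocyte-like nuclei, and every value of the Schwann-like and skeletal muscle-like classes.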
